A study of Homo sapiens with 12 samples.

Results

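Amino acids enter and leave cells through several families of membrane transporters, and 25 genes of 6 such families (SLC1A, SLC3A, SLC7A, SLC36A, SLC38A and SLC43A) were followed in LNCaP prostate cancer cells. Of 36137 genes in the count table, 38 carried a name of these families. Those with at least 100 counts summed over the 12 libraries were taken, which left the 25, and all 25 had enough counts to be tested. The lowest member was SLC7A9 with 183 counts, and the highest of the 13 genes left out was SLC38A3 with 98 counts. LNCaP is an established androgen-sensitive line from a lymph node metastasis of a prostate carcinoma. Every culture was transfected for 48 h, kept without serum for 12 h and then treated for 24 h, and poly(A) RNA was sequenced. The 4 groups of 3 libraries each were PXN siRNA with 2.5 nM dihydrotestosterone (DHT, a natural androgen), non-specific siRNA with 2.5 nM DHT, PXN siRNA with the ethanol vehicle, and non-specific siRNA with the ethanol vehicle. PXN encodes paxillin, an adaptor protein of focal adhesions. The labels describe 1 cell line, do not give the sequence or number of the siRNAs, and do not tell whether replicates were separate cultures. The p-values therefore reflect variation among these libraries alone, some of which may be technical.

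As background, transport is divided among families with different partners and driving forces. SLC3A proteins are heavy chains that bring SLC7A light chains to the cell surface, where the pair exchanges one amino acid for another. SLC1A and many SLC38A proteins use the sodium gradient, SLC36A proteins use protons, and SLC43A proteins let large neutral amino acids pass without exchange. Some SLC36A and SLC38A members sit on lysosomes and report amino acid supply to the growth kinase complex mTORC1. In prostate cells SLC43A1 is known as an androgen-regulated gene, and the transcription factor ATF4 is known to raise several transporters when amino acids are short.

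PXN mRNA was read first as a check of the labels. It stood at 19.96, 18.1 and 16.6 CPM (a gene's counts relative to the size of its library, scaled by TMM) with PXN siRNA against 113, 99.7 and 104 CPM with non-specific siRNA under DHT, and at 15.2, 21.2 and 14.9 CPM against 112, 106 and 108 CPM under vehicle. Libraries held 34321000 to 38633456 counts, so 1 CPM stood for 33.7 to 38.3 counts. The members took 0.213% to 0.233% of the counts of a library. Mitochondrially encoded genes took 8.13% to 8.95% of the counts in the 6 PXN siRNA libraries and 4.69% to 7.55% in the other 6. The luminal prostate markers KLK3, KLK2, HOXB13, FOLH1, TMPRSS2, KRT8 and KRT18 were all detected, with KLK3 at a mean of 584 CPM with PXN siRNA against 2235 CPM with non-specific siRNA under DHT, and 140.1 CPM against 649 CPM under vehicle. Of the markers of other cell types, KRT5 and TP63 (basal cells), PECAM1 (endothelium) and PTPRC (leukocytes) had 10, 4, 13 and 16 counts over all libraries, too few to be tested. KRT14, the third basal marker, had 85 counts; it was called lower with PXN siRNA under DHT and higher with DHT with non-specific siRNA, with means of 0.184 CPM in PXN siRNA with DHT, 0.439 CPM in non-specific siRNA with DHT, 0.0715 CPM in PXN siRNA with vehicle and 0.102 CPM in non-specific siRNA with vehicle. Of the 9 markers of other cell types 5 had enough counts to be tested; with PXN siRNA 1 was higher and 3 lower under DHT, and 1 was higher and 2 lower under vehicle. The fibroblast markers went both ways: COL1A1 was the higher one, at 18.8 to 38.3 CPM over all libraries, while COL3A1 (a mean of 3.01 CPM with PXN siRNA against 5.36 CPM with non-specific siRNA under DHT, and 3.94 against 6.86 CPM under vehicle) and LUM (0.0827 against 0.277 CPM, and 0.125 against 0.596 CPM) were lower in both treatments. VWF, the other endothelial marker, was at 12.8 to 22.0 CPM and was not called. These 9 markers summed to 54.1 to 63.5 CPM with PXN siRNA against 38.6 to 48.0 CPM with non-specific siRNA under DHT, and to 51.5 to 52.1 CPM against 38.2 to 44.2 CPM under vehicle. The part of the mitochondrial share and of these markers in the results on transporters was not tested. In bulk RNA, fewer cells of a type and less RNA per cell cannot be told apart.

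The transporter mRNAs covered a wide range of levels. Levels were compared between genes as CPM per kb of exon sequence, since longer transcripts give more reads. With non-specific siRNA under vehicle, SLC38A2 was highest at a mean of 72.8 ± 1.71 CPM per kb (SD, n = 3), followed by SLC3A2 at 44.2 ± 3.86, SLC1A5 at 34.7 ± 4.89, SLC7A1 at 26.9 ± 2.70 and SLC7A8 at 26.2 ± 2.12 CPM per kb. SLC38A1, SLC7A11 and SLC38A10 followed at 25.1, 25.0 and 23.9 CPM per kb, and these last 5 genes lay within their spread of each other. SLC7A5 was at 2.80 CPM per kb, below both SLC43A1 (10.5) and SLC43A2 (7.86), which carry much the same amino acids. SLC1A3, SLC7A7, SLC7A13, SLC7A9 and SLC38A4 were below 1 CPM per kb. With PXN siRNA the top pair changed places in both treatments: SLC3A2 stood at 73.3 ± 5.04 CPM per kb and SLC38A2 at 48.3 ± 0.484 CPM per kb under DHT, and at 71.0 ± 6.33 and 53.4 ± 5.07 CPM per kb under vehicle. The place of this pair depends on the length used: per kb of the longest transcript SLC3A2 was first in the control group too.

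**Figure D1:**
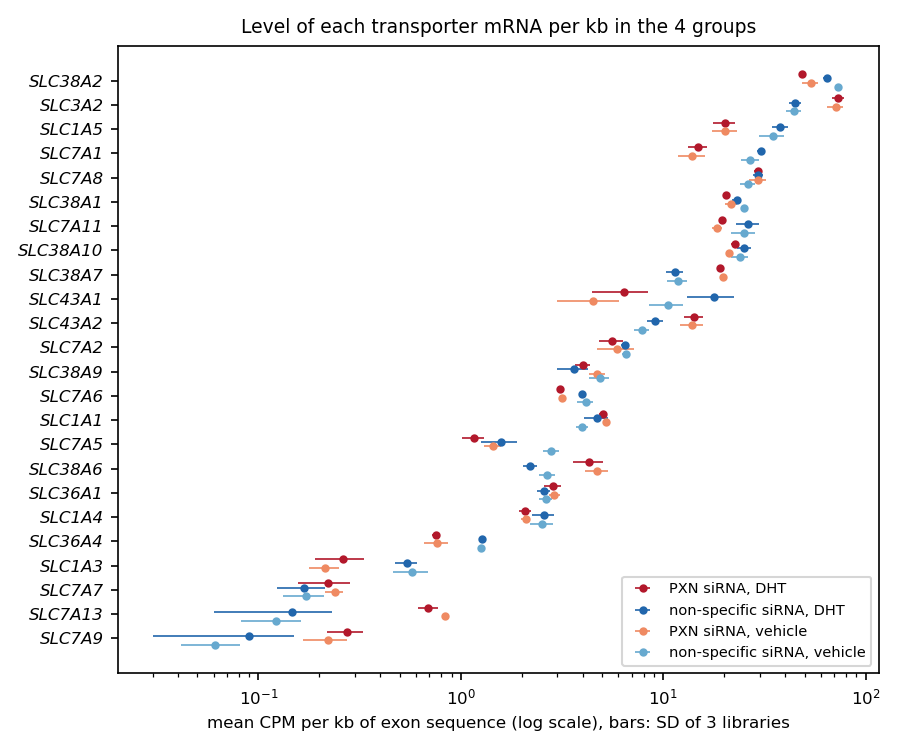
Mean level of each transporter mRNA in CPM per kb of exon sequence (log scale), with bars of 1 SD over 3 libraries; rows are genes in order of the level with non-specific siRNA under vehicle, and colours are the 4 groups. SLC38A4 is not drawn because some of its libraries are at 0. SLC38A2 leads in the libraries with non-specific siRNA and SLC3A2 in those with PXN siRNA.

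The first question the design asks is what changes when paxillin mRNA is reduced. Most transporter mRNAs changed, in both directions. Under DHT 18 of the 25 members passed the threshold, 6 higher and 12 lower with PXN siRNA, and under vehicle 18 passed, 7 higher and 11 lower (two-sided quasi-likelihood F test of edgeR, adjusted p under 0.05 by Benjamini-Hochberg over 18468 genes). Of all genes tested, 51.8% were called under DHT (25.0% higher and 26.7% lower) and 50.2% under vehicle (23.9% higher and 26.3% lower), so a call as such was common in these libraries. Upper-quartile scaling moved the median of all genes to 0.13 under DHT and 0.12 under vehicle, and with it 60.7% and 60.2% of all calls were higher, beside 48.3% and 47.7% with TMM. Among the members that scaling gave 16 calls under DHT, 7 higher and 9 lower, and 18 under vehicle, 9 higher and 9 lower. SLC7A9 (141 counts in the PXN siRNA libraries against 42 in the others) and SLC7A13 (379 against 63) drew most of their counts from the libraries where they were called higher, so their place among the members is not independent of that difference. Both are included in the members counted as higher in each treatment. The median log2 fold change of the members was -0.18 in each treatment, against 0.03 over all genes tested under DHT and 0.02 under vehicle. The comparisons under DHT and under vehicle share no library. Called the same way in both were 17 members, 6 higher and 11 lower, and no member was called in opposite directions. That is 68% of the members, beside 42.6% of all genes tested. SLC7A9 and SLC7A13 are among these members, and all genes tested include many with low counts. With a filter at a mean of 1 CPM, 14 of 23 members were called under DHT, beside 8487 of 14030 genes. Under vehicle 17 of 23 were called with that filter, beside 8247 of 14030 genes.

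**Figure D2:**
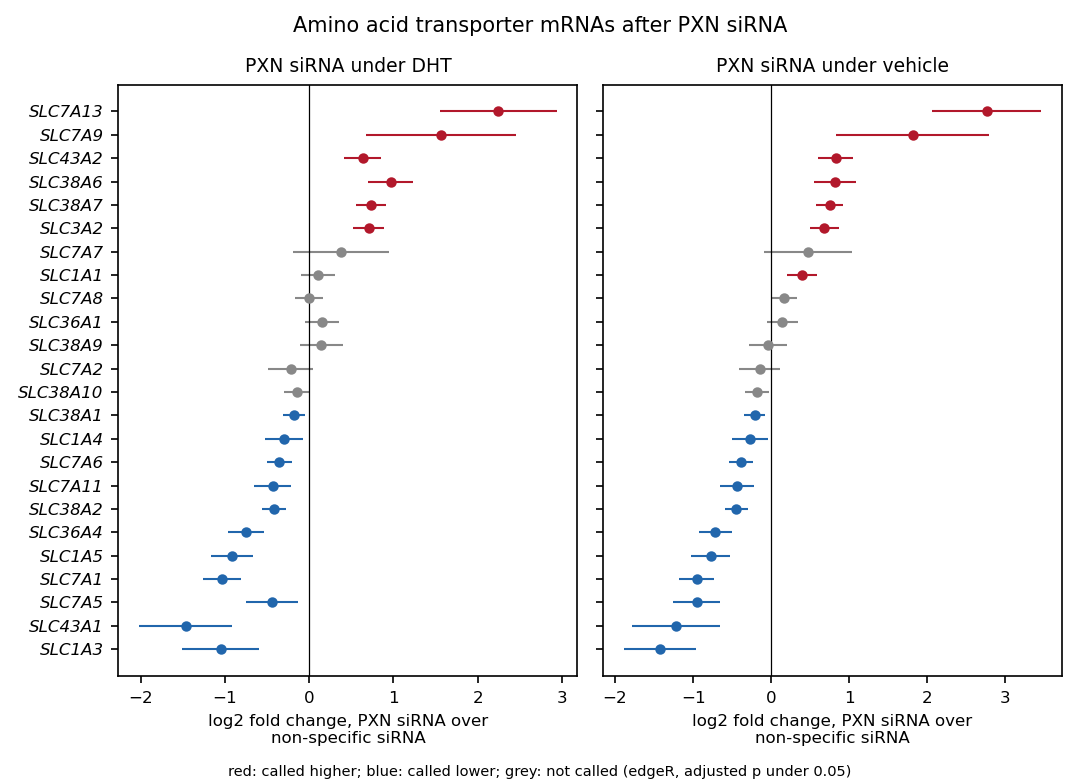
Log2 fold change of 24 transporter mRNAs with PXN siRNA over non-specific siRNA, under DHT on the left and under vehicle on the right, with 95% intervals. Red marks genes called higher, blue genes called lower and grey genes not called at an adjusted p of 0.05. SLC38A4 is not drawn because its vehicle libraries hold at most 2 counts. SLC43A2, SLC38A6, SLC38A7 and SLC3A2 lie to the right of 0 in both panels, and SLC7A1, SLC1A5, SLC36A4 and SLC43A1 to the left.

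The heavy chain of the surface exchangers rose, while 3 of its 5 partners among the members fell. SLC3A2 (chromosome 11, 62856102 to 62888875, plus strand, GRCh38) encodes the heavy chain 4F2hc, also called CD98. It stood at 409, 358 and 372 CPM with PXN siRNA against 242, 242 and 214 CPM with non-specific siRNA under DHT. Under vehicle it stood at 393, 331 and 379 CPM against 229, 249 and 209 CPM. Each PXN siRNA library was above every library with non-specific siRNA. The rise was 1.63-fold under DHT (log2 fold change 0.71 ± 0.09, SE, adjusted p = 1.03e-05, edgeR) and 1.61-fold under vehicle (0.68 ± 0.09, adjusted p = 1.52e-05).

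Of the 5 members that are light chains of this heavy chain, SLC7A11, SLC7A6 and SLC7A5 fell and SLC7A8 and SLC7A7 did not pass the threshold. SLC7A10, a further light chain, had 10 counts over all libraries and was left out. SLC7A11 encodes xCT, which brings cystine into the cell in exchange for glutamate. Its level was 183, 186 and 196 CPM with PXN siRNA against 217, 280.3 and 266 CPM with non-specific siRNA under DHT, and 166, 182 and 186 CPM against 206, 271 and 246 CPM under vehicle. The groups did not overlap, and the log2 fold change was -0.43 ± 0.10 under DHT (adjusted p = 0.00255, edgeR) and -0.44 ± 0.10 under vehicle (adjusted p = 0.00256). An antisense gene, SLC7A11-AS1, covers 9.0% of its exon sequence but had only 629 counts against 92815 for SLC7A11.

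SLC7A5 encodes LAT1, the exchanger of large neutral amino acids often studied in tumours. It was at 5.88, 5.90 and 4.70 CPM with PXN siRNA against 9.16, 6.37 and 6.86 CPM with non-specific siRNA under DHT, and at 7.57, 6.33 and 6.67 CPM against 14.2, 13.7 and 12.0 CPM under vehicle. Under vehicle the groups were well apart and the log2 fold change was -0.95 ± 0.14 (adjusted p = 5.69e-05, edgeR). Under DHT the gap was narrow, with 6.37 CPM as the lowest library with non-specific siRNA against 5.90 CPM as the highest with PXN siRNA, and the log2 fold change was -0.44 ± 0.14 (adjusted p = 0.0192). That call was lost without replicate 1 of the non-specific siRNA with DHT (-0.29), without replicate 3 of the PXN siRNA with DHT (-0.36), and with upper-quartile scaling (-0.34).

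SLC7A6, which encodes y+LAT2, an exchanger of cationic for neutral amino acids, was at 23.7, 24.1 and 22.9 CPM against 29.5, 31.1 and 29.8 CPM under DHT, with PXN siRNA first. Under vehicle the PXN siRNA libraries held 24.1, 24.6 and 23.6 CPM and those with non-specific siRNA 30.6, 34.6 and 29.1 CPM. The falls were small and the groups did not overlap (-0.35 ± 0.07 and -0.38 ± 0.07 on the log2 scale, adjusted p = 0.00067 and 0.000353, edgeR). SLC7A6 shares 44.4% of its exon sequence with SLC7A6OS on the opposite strand, and no source used here states whether reads were counted by strand, so its level is less certain. SLC7A8, which encodes LAT2, was at 183, 179 and 166 CPM with PXN siRNA against 187, 170.1 and 172 CPM with non-specific siRNA under DHT. Under vehicle its libraries held 195, 168 and 165 CPM with PXN siRNA against 171, 153 and 146 CPM. The groups overlapped in both treatments, and the log2 differences were 0.00 (95% interval -0.17 to 0.17) and 0.17 (-0.0021 to 0.33). That under vehicle was called with upper-quartile scaling (0.27, adjusted p = 0.011, edgeR) and with a filter at a mean of 1 CPM (0.21, 0.0399). SLC7A7, which encodes y+LAT1, was at 0.829 to 1.48 CPM with PXN siRNA and 0.654 to 1.11 CPM with non-specific siRNA over both treatments.

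By the rule given with the processing, the numbers in the labels were taken to pair the libraries under vehicle. The share of all genes called there was 57.5% with the replicate number as a block and 50.2% without. The block gave 21 member calls there in place of 18. It added SLC7A8 (0.17, adjusted p = 0.00776, range over the alternatives 0.00776 to 0.537), SLC7A7 (0.49, 0.0457, range 0.0457 to 0.383) and SLC38A10 (-0.18, 0.00819, range 0.00819 to 0.396).

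Set per kb, the heavy chain mRNA changed its place against the sum of its light chain mRNAs. The ratio of SLC3A2 to the sum of SLC7A5, SLC7A6, SLC7A7, SLC7A8 and SLC7A11 was 1.45, 1.28 and 1.37 with PXN siRNA against 0.783, 0.741 and 0.668 with non-specific siRNA under DHT. Under vehicle it was 1.38, 1.23 and 1.42 against 0.774, 0.785 and 0.716. The light chains summed to 52.3 to 54.3 CPM per kb with PXN siRNA against 59.7 to 63.0 CPM per kb with non-specific siRNA under DHT, and to 51.5 to 54.8 against 56.4 to 61.3 CPM per kb under vehicle. All 6 PXN siRNA libraries were therefore above 1 and the other 6 below 1; the value 1 itself depends on the lengths used. This sum was formed with the fold changes known and is given without a test. It describes mRNA, not protein at the membrane.

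**Figure D3:**
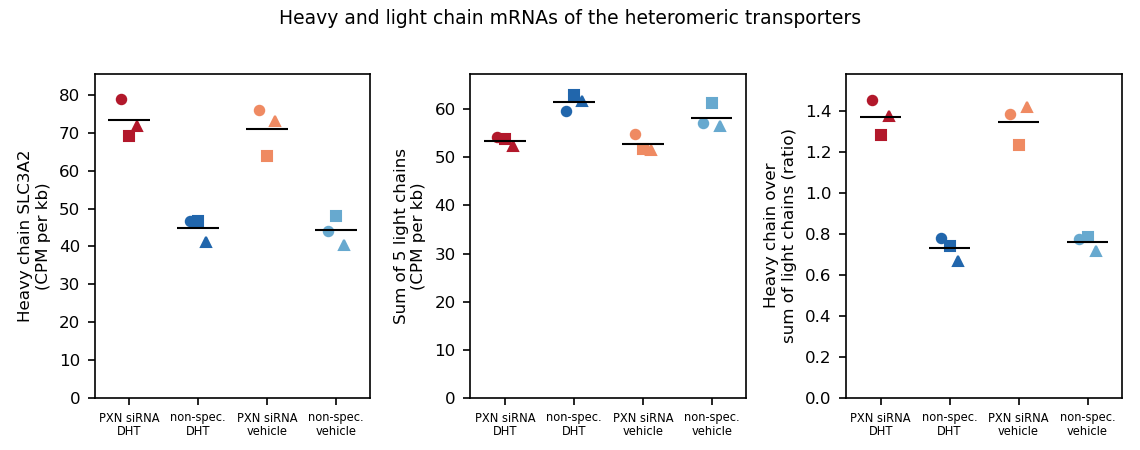
Heavy chain SLC3A2, the sum of 5 light chains, and their ratio in every library; the y axes are CPM per kb in the first pair of panels and a plain ratio in the last, points are libraries (circle, square and triangle for replicates 1, 2 and 3) and lines are group means. The ratio runs from 1.23 to 1.45 with PXN siRNA and from 0.668 to 0.785 with non-specific siRNA.

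The remaining light chains among the members, SLC7A13 and SLC7A9, belong with the other heavy chain, rBAT, encoded by SLC3A1. For SLC7A13 this is known from mouse kidney. SLC3A1 itself had 12 counts over all libraries. SLC7A13 was at 1.75, 1.47 and 1.44 CPM with PXN siRNA against 0.397, 0.111 and 0.475 CPM with non-specific siRNA under DHT, and at 1.91, 1.88 and 1.83 CPM against 0.379, 0.216 and 0.230 CPM under vehicle. These are low levels, and the groups did not overlap. SLC7A13 held 379 counts with PXN siRNA against 63 with non-specific siRNA. It too reached the count rule mainly through the libraries where it was higher, so its rise is a description only. The log2 fold change was 2.24 ± 0.32 under DHT (adjusted p = 4.93e-05, edgeR) and 2.76 ± 0.33 under vehicle (adjusted p = 8.93e-06). SLC7A9 stayed below 1 CPM in every library, at 0.574, 0.693 and 0.857 CPM against 0.284, 0.360 and 0.0594 CPM under DHT with PXN siRNA first. Under vehicle it was at 0.599, 0.700 and 0.418 CPM against 0.117, 0.216 and 0.144 CPM. Its rise passed the threshold in both treatments (1.56 ± 0.42 under DHT and 1.81 ± 0.46 under vehicle, adjusted p = 0.00574 and 0.00425, edgeR). SLC7A9 held 141 counts with PXN siRNA against 42 with non-specific siRNA. It reached the count rule mainly through the libraries where it was higher, so this rise is given as a description.

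The sequence before a start site is shown for SLC3A2, which rose, and SLC7A1, which fell, because both hold the core of the antioxidant response element in this window while their mRNAs moved in opposite directions. Both are from RefSeq's promoter table (GRCh38.p14), each is the 120 bases before 1 annotated start of the gene, read 5′ to 3′ on the gene's strand, and capitals mark the motif TGACNNNGC. The SLC3A2 region, chr11:62881579-62881698 on the plus strand, lies within an intron of the longer GENCODE transcripts of the gene. The SLC7A1 region, chr13:29595689-29595808 on the minus strand, lies before the gene.
SLC3A2: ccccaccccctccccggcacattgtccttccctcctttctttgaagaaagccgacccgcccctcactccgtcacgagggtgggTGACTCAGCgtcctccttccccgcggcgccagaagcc
SLC7A1: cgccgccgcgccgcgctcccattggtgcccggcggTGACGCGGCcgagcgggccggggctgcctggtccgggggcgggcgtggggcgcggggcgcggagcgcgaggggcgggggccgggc

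Promoter entries (250 bases before to 50 after a start) were found for 22 of the 25 members, 43 entries in all; SLC7A11, SLC7A2 and SLC7A13 had none. TGACNNNGC, read on both strands, was in 7 of the 43 entries, from 7 genes (SLC1A3, SLC1A5, SLC3A2, SLC7A1, SLC7A5, SLC7A6 and SLC7A7), and in 13.3% of all 35116 promoters. TGATGNAA, the C/EBP-ATF response element through which ATF4 acts, was in 6 of the 43 (SLC1A3, SLC1A4, SLC1A5, SLC38A1, SLC3A2 and SLC7A1) and in 3.62% of all promoters. These 6 genes fell in both treatments apart from SLC3A2, which rose. The palindromic androgen response element was in no entry of a member and in 1 of all promoters. The motifs do not share a core that lets 1 match serve another, and a match says only that these letters are present.

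Of the transporters of cationic amino acids, SLC7A1 had the smallest p of the members that fell. It encodes CAT1, the main carrier of arginine and lysine in many cells, and stood at 105, 128 and 110.0 CPM with PXN siRNA against 233, 246 and 223 CPM with non-specific siRNA under DHT. Under vehicle it stood at 96.9, 126 and 98.6 CPM against 188, 229 and 204 CPM. No libraries overlapped. SLC7A1 was 2.05-fold lower under DHT (-1.03 ± 0.10, adjusted p = 2.09e-06, edgeR) and 1.93-fold lower under vehicle (-0.95 ± 0.10, adjusted p = 4.54e-06). SLC7A2, which encodes CAT2, was at 37.2, 48.0 and 46.6 CPM with PXN siRNA against 48.4, 52.5 and 52.6 CPM with non-specific siRNA under DHT, and at 36.6, 55.7 and 48.6 CPM against 50.3, 50.8 and 54.6 CPM under vehicle. Its log2 differences of -0.22 (95% interval -0.48 to 0.044) and -0.14 (-0.41 to 0.12) did not pass the threshold. That under DHT was called without replicate 1 of the PXN siRNA with vehicle (adjusted p = 0.036, edgeR). That under vehicle was called without replicate 2 of the same group (adjusted p = 0.049, edgeR).

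In the SLC1 family the neutral amino acid exchangers fell in both treatments. SLC1A5 encodes ASCT2, which exchanges glutamine and other neutral amino acids. Its level was 63.7, 76.6 and 60.5 CPM with PXN siRNA against 119, 139 and 121 CPM with non-specific siRNA under DHT, and 60.1, 78.3 and 64.0 CPM against 104, 134 and 109 CPM under vehicle. The groups did not overlap: SLC1A5 was 1.89-fold lower under DHT (-0.92 ± 0.12, adjusted p = 1.89e-05, edgeR) and 1.71-fold lower under vehicle (-0.78 ± 0.12, adjusted p = 8.63e-05). In all 4 groups replicate 2 was the highest library. An antisense gene, AC008622.2, covers 23.4% of the SLC1A5 exon sequence and was not among the genes counted. Whether reads were counted by strand is not known.

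SLC1A4, which encodes ASCT1, an exchanger of serine, alanine and cysteine, changed less. It held 13.5, 15.4 and 14.5 CPM against 15.5, 19.8 and 18.0 CPM under DHT, and 15.3, 13.8 and 14.6 CPM against 15.8, 20.0 and 16.6 CPM under vehicle, with PXN siRNA first in each pair. The gap between the groups was narrow. Its log2 fold change was -0.30 ± 0.11 under DHT (adjusted p = 0.0305, edgeR) and -0.27 ± 0.11 under vehicle (adjusted p = 0.0492). The call under DHT was lost without replicate 2 or 3 of the non-specific siRNA with DHT (-0.24 and -0.31) and without replicate 1 or 3 of the PXN siRNA with DHT (-0.27 and -0.32), with upper-quartile scaling (-0.20) and with a filter at a mean of 1 CPM (-0.26). That under vehicle was lost without replicate 2 or 3 of the non-specific siRNA with vehicle (-0.18 and -0.32) and without replicate 2 or 3 of the PXN siRNA with vehicle (-0.24 and -0.29), with upper-quartile scaling (-0.17), the 1 CPM filter (-0.23), limma-voom (-0.26), without mitochondrially encoded genes (-0.26) and in a fit of only the groups compared (-0.26).

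The glutamate transporters of this family differed from each other. SLC1A3, which encodes EAAT1, was at 1.64, 2.08 and 1.19 CPM with PXN siRNA against 3.83, 3.35 and 2.97 CPM with non-specific siRNA under DHT, and at 1.14, 1.29 and 1.59 CPM against 2.91, 4.35 and 3.57 CPM under vehicle. It was 2.07-fold and 2.68-fold lower without overlap (-1.05 ± 0.21 and -1.42 ± 0.22 on the log2 scale, adjusted p = 0.000868 and 8.47e-05, edgeR). SLC1A1, which encodes EAAT3, was at 19.1, 20.5 and 21.0 CPM with PXN siRNA against 21.3, 16.2 and 18.8 CPM with non-specific siRNA under DHT, where the groups overlapped (0.10 ± 0.09, adjusted p = 0.36). Under vehicle it was at 21.2, 20.8 and 20.7 CPM against 17.1, 15.2 and 15.4 CPM, and rose by 0.40 ± 0.09 on the log2 scale (adjusted p = 0.00254).

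The sodium-coupled SLC38 family held members that fell and members that rose. SLC38A2 encodes SNAT2, a carrier of small neutral amino acids known to respond to amino acid shortage. It was at 317, 323 and 317 CPM with PXN siRNA against 447, 421 and 410.0 CPM with non-specific siRNA under DHT, and at 327, 391 and 340.1 CPM against 488, 486 and 467 CPM under vehicle. Every PXN siRNA library was below every library with non-specific siRNA of its treatment, with log2 fold changes of -0.42 ± 0.07 under DHT and -0.45 ± 0.07 under vehicle (adjusted p = 0.000146 and 8.69e-05, edgeR). SLC38A1, which encodes the glutamine carrier SNAT1, fell by a smaller amount, with 210.0, 204 and 197 CPM against 242, 233 and 218 CPM under DHT and 218, 231 and 203 CPM against 248, 261 and 247 CPM under vehicle, PXN siRNA first. Its log2 fold changes were -0.18 ± 0.06 and -0.21 ± 0.06 (adjusted p = 0.0276 and 0.0121). The call under DHT was lost without replicate 1 of the non-specific siRNA with DHT (-0.16) and without replicate 3 of the PXN siRNA with DHT (-0.18) and with a filter at a mean of 1 CPM (-0.14), and both calls were lost with upper-quartile scaling (-0.08 and -0.11).

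SLC38A7, which encodes the lysosomal glutamine exporter SNAT7, had the smallest p of the genes that rose. Its level was 135, 131 and 133 CPM with PXN siRNA against 87.8, 79.7 and 72.0 CPM with non-specific siRNA under DHT, and 144, 137 and 135 CPM against 84.8, 90.0 and 72.4 CPM under vehicle. The groups were far apart in both treatments, with rises of 1.66-fold (0.74 ± 0.08, adjusted p = 4.76e-06, edgeR) and 1.68-fold (0.75 ± 0.08, adjusted p = 4.05e-06). SLC38A6, whose product SNAT6 is less studied, was at 25.9, 18.5 and 22.3 CPM against 12.3, 10.5 and 11.3 CPM under DHT, and at 27.8, 22.1 and 23.0 CPM against 15.0, 13.8 and 12.6 CPM under vehicle, PXN siRNA first. It rose 1.95-fold under DHT (0.97 ± 0.13, adjusted p = 1.87e-05) and 1.76-fold under vehicle (0.82 ± 0.12, adjusted p = 7.63e-05). Its exons overlap those of TRMT5 on the opposite strand by 245 bases.

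SLC38A9, the lysosomal arginine sensor upstream of mTORC1, did not pass the threshold in either treatment. Its log2 differences with PXN siRNA were 0.15 (95% interval -0.11 to 0.40) under DHT and -0.040 (-0.29 to 0.21) under vehicle. That under DHT passed without replicate 1 of the non-specific siRNA with DHT (adjusted p = 0.0404, edgeR). SLC38A10 did not pass under DHT, with -0.15 (-0.30 to 0.011, adjusted p = 0.111, edgeR). Under vehicle it lay just outside the threshold, with -0.18 (-0.34 to -0.022, adjusted p = 0.0548, edgeR). It was called as lower under 3 of 21 other settings under DHT and under 10 of 21 under vehicle. SLC38A4 was near 0 in all vehicle libraries and is described with the response to DHT.

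Among the proton-coupled transporters, SLC36A4, which encodes PAT4, a carrier of proline and tryptophan, fell and SLC36A1 did not pass the threshold. SLC36A4 was at 7.52, 7.48 and 6.91 CPM with PXN siRNA against 12.3, 12.4 and 12.2 CPM with non-specific siRNA under DHT. Under vehicle it was at 6.29, 8.34 and 7.48 CPM against 12.3, 12.0 and 12.1 CPM. The libraries with non-specific siRNA differed little from each other, and all lay above those with PXN siRNA. The fall was 1.69-fold under DHT (-0.75 ± 0.10, adjusted p = 2.19e-05, edgeR) and 1.64-fold under vehicle (-0.72 ± 0.10, adjusted p = 3.55e-05). For SLC36A1, which encodes the lysosomal carrier PAT1, the log2 differences were 0.15 (95% interval -0.045 to 0.35) under DHT and 0.14 (-0.052 to 0.34) under vehicle. With upper-quartile scaling it was called higher in both (adjusted p = 0.0317 and 0.0397, edgeR).

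The pair of SLC43 members, both carriers of large neutral amino acids, moved in opposite directions. SLC43A1, which encodes LAT3, was at 14.8, 28.1 and 25.3 CPM with PXN siRNA against 43.8, 74.6 and 69.8 CPM with non-specific siRNA under DHT, and at 11.4, 21.9 and 14.5 CPM against 30.6, 44.8 and 35.9 CPM under vehicle. Replicate 1 was the lowest library in each of the 4 groups, but within each treatment no PXN siRNA library reached the level of the other group. SLC43A1 was 2.76-fold lower under DHT (-1.47 ± 0.26, adjusted p = 0.000274, edgeR) and 2.33-fold lower under vehicle (-1.22 ± 0.26, adjusted p = 0.00147).

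SLC43A2, which encodes LAT4, was at 167, 149 and 135 CPM with PXN siRNA against 106, 96.7 and 88.1 CPM with non-specific siRNA under DHT, and at 169, 135 and 139 CPM against 86.6, 88.5 and 75.1 CPM under vehicle. All PXN siRNA libraries lay above the others. The rise was 1.55-fold under DHT (0.63 ± 0.10, adjusted p = 0.000129, edgeR) and 1.77-fold under vehicle (0.83 ± 0.10, adjusted p = 1.39e-05).

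**Figure D4:**
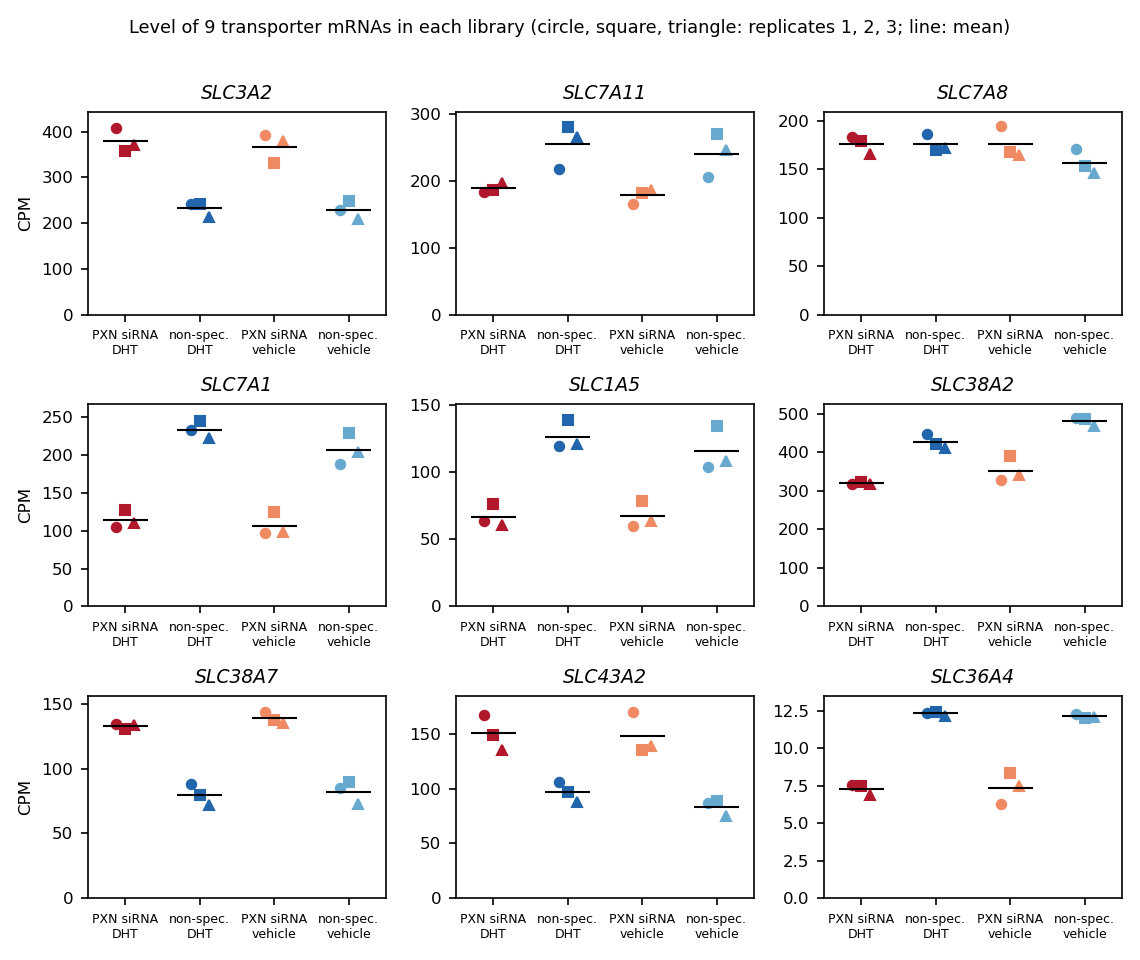
Level in CPM (y axis, from 0) of 9 transporter mRNAs in each library; groups run along the x axis, circle, square and triangle are replicates 1, 2 and 3, and lines are group means. SLC3A2, SLC38A7 and SLC43A2 stand higher and SLC7A11, SLC7A1, SLC1A5, SLC38A2 and SLC36A4 lower in the PXN siRNA libraries of each treatment, while the SLC7A8 groups overlap.

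The next question is what DHT changes. Few transporter mRNAs were called in the fit without a replicate block, and more were called with the block, as given below. With non-specific siRNA, 2 of the 25 members were called with DHT against vehicle, SLC38A4 higher and SLC7A5 lower (edgeR, adjusted p under 0.05), while 4.87% of all genes tested were called (2.72% higher and 2.16% lower). SLC38A4 reached 100 counts only through the DHT libraries, which held 295 of its counts against 4 in the vehicle libraries, so its rise follows in part from how the members were chosen and is given as a description. With PXN siRNA no member was called by edgeR, beside 0.184% of all genes. An unadjusted p under 0.05 (edgeR) was found for 2 members, beside 1378 of 18468 genes. DESeq2 called 1 member and 145 genes, and limma-voom called 0 members and 24 genes. These comparisons share the DHT or vehicle libraries with the comparisons of the siRNAs above, so their values are given beside each other only.

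SLC38A4, which encodes the sodium-coupled neutral amino acid transporter SNAT4, was close to absent without DHT. It was at 0.191, 0.859 and 1.11 CPM with PXN siRNA and DHT against 0, 0 and 0.0261 CPM with PXN siRNA and vehicle. With non-specific siRNA it was at 0.596, 2.08 and 3.60 CPM with DHT against 0.0291, 0.0541 and 0 CPM with vehicle. Each DHT library was above every vehicle library, and the DHT libraries themselves differed several-fold, with replicate 1 lowest under both siRNAs. In counts this was 78 with DHT against 1 with vehicle for PXN siRNA, a ratio of 80.3 (95% counting interval 14.0 to 3213), and 217 against 3 for non-specific siRNA, a ratio of 73.0 (24.7 to 357). The intervals cover counting error only. The gene passed the count rule only through its DHT libraries, so calls of its rise with DHT do not count as support. With non-specific siRNA the rise had an adjusted p = 0.00178 (edgeR). With PXN siRNA the adjusted p = 0.108, and the gene was called without replicate 1 of the PXN siRNA with DHT, without replicate 1 of the non-specific siRNA with DHT (fitted log2 fold changes 6.31 and 5.86), with no filter (5.87), by DESeq2 (6.23), and with the replicate number as a block (5.88, adjusted p = 0.00014, range over the alternatives 0.0001 to 0.402). Under DHT the level was lower with PXN siRNA (-1.53 ± 0.55 on the log2 scale, adjusted p = 0.0311), but the groups overlapped and that call was lost without replicate 3 (-0.92) or 2 (-1.56) of the non-specific siRNA with DHT and without replicate 1 of the PXN siRNA with DHT (-1.10), with limma-voom (-1.50) and in a fit of only the groups compared (-1.53).

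SLC7A5 was the member that fell with DHT. With non-specific siRNA it was at 9.16, 6.37 and 6.86 CPM with DHT against 14.2, 13.7 and 12.0 CPM with vehicle, a 1.78-fold fall without overlap (-0.83 ± 0.14, adjusted p = 0.00289, edgeR). With PXN siRNA it was at 5.88, 5.90 and 4.70 CPM with DHT against 7.57, 6.33 and 6.67 CPM with vehicle (-0.32 ± 0.15, adjusted p = 0.655). Those groups did not overlap either, and both lay below the vehicle libraries with non-specific siRNA.

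SLC43A1 was higher with DHT in each replicate number of both siRNAs. The ratio of the DHT library to the vehicle library with the same number was 1.30, 1.28 and 1.75 with PXN siRNA and 1.43, 1.67 and 1.94 with non-specific siRNA. Without regard to the numbers the groups overlapped, and the log2 fold change was 0.51 ± 0.27 with PXN siRNA (adjusted p = 0.76, edgeR) and 0.76 ± 0.25 with non-specific siRNA (adjusted p = 0.117). Without replicate 1 of the non-specific siRNA with DHT it was 0.96 and passed (adjusted p = 0.0226), as it did with no filter (0.77, adjusted p = 0.00158; range over the alternatives 3.63e-05 to 0.374).

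The labels do not state what the replicate numbers mark. By the rule given with the processing they were taken to pair the libraries in both DHT comparisons, and the block changed the calls. With non-specific siRNA it gave 8 called members in place of 2, 5 higher and 3 lower. The share of all genes called was 12.1% with the block, 6.17% higher and 5.93% lower, and 4.87% without. Added were SLC43A1 (0.74, adjusted p = 3.63e-05), SLC43A2 (0.21, 0.0238, range over the alternatives 0.0238 to 0.624), SLC7A8 (0.17, 0.0294, range 0.0294 to 0.589) and SLC7A1 (0.18, 0.0428, range 0.0428 to 0.77) as higher. SLC38A9 (-0.42, 0.00213, range 0.00213 to 0.274) and SLC38A6 (-0.28, 0.0333, range 0.0333 to 0.657) were added as lower. With PXN siRNA the block gave 2 calls, beside 1.87% of all genes, SLC38A4 and SLC43A1 (0.51, adjusted p = 0.0128, range 0.0128 to 1). SLC38A9 with non-specific siRNA was at 38.5, 29.4 and 28.0 CPM with DHT against 48.6, 40.2 and 39.6 CPM with vehicle, and without the block it missed the threshold (-0.42 ± 0.12, adjusted p = 0.0564, edgeR). It passed without a block too under 5 other settings: upper-quartile scaling (adjusted p = 0.0464), no filter (0.00721), DESeq2 (0.0213), limma-voom (0.0499) and without replicate 1 of the non-specific siRNA with DHT (0.00346).

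**Figure D5:**
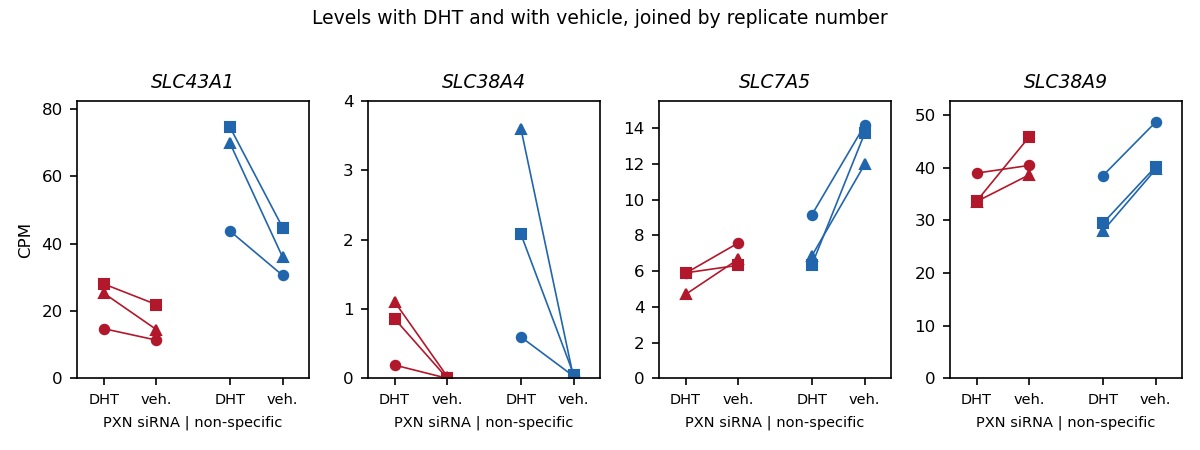
Level in CPM (y axis, from 0) of SLC43A1, SLC38A4, SLC7A5 and SLC38A9 with DHT and with vehicle; lines join libraries with the same replicate number (circle, square and triangle for 1, 2 and 3), red for PXN siRNA and blue for non-specific siRNA. SLC43A1 and SLC38A4 are higher, and SLC7A5 and SLC38A9 lower, with DHT along every line.

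The ratio of SLC43A1 to SLC7A5 per kb put both DHT responses in 1 value. It was 3.37, 6.39 and 7.25 with PXN siRNA and DHT against 2.02, 4.66 and 2.92 with PXN siRNA and vehicle, and 6.41, 15.7 and 13.7 with non-specific siRNA and DHT against 2.90, 4.39 and 4.03 with non-specific siRNA and vehicle. With non-specific siRNA the DHT libraries lay above the vehicle libraries; with PXN siRNA they overlapped. The ratio was formed with the values known and is given without a test.

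The 95% interval of the DHT difference covered 0 for 23 of the 25 members with PXN siRNA and for 18 with non-specific siRNA. The same edgeR test gave an unadjusted p under 0.05 for 2 and 7 members. Over all 18468 genes tested it did so for 1378 with PXN siRNA and 3066 with non-specific siRNA. SLC3A2 differed by 0.045 (95% interval -0.14 to 0.23) with PXN siRNA and 0.022 (-0.16 to 0.20) with non-specific siRNA on the log2 scale. SLC7A11 differed by 0.083 (-0.13 to 0.30) and 0.079 (-0.14 to 0.30), and SLC1A5 by -0.012 (-0.27 to 0.24) and 0.13 (-0.12 to 0.38). The median of the members was -0.01 with PXN siRNA and 0.02 with non-specific siRNA, beside -0.01 over all genes tested in each.

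Whether the response to DHT differed between the siRNAs was tested as an interaction. No member and no other gene was called by edgeR, where 2 members and 778 genes had an unadjusted p under 0.05; DESeq2 called 30 genes and no member, and limma-voom called 0. The smallest p among the members was that of SLC7A5 (0.51 ± 0.20 on the log2 scale, 95% interval 0.082 to 0.94, unadjusted p = 0.0227, adjusted p = 1, edgeR). SLC1A1 (-0.29 ± 0.13, interval -0.57 to -0.011, unadjusted p = 0.0424, adjusted p = 1) and SLC7A8 (-0.16 ± 0.11, interval -0.40 to 0.073) followed. So the different DHT values of SLC7A5 with PXN siRNA and with non-specific siRNA, and the different PXN siRNA values of SLC1A1 under DHT and under vehicle, were not shown to differ.

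Some members are neighbours on the genome. SLC38A1, SLC38A2 and SLC38A4 lie in a row on the minus strand of chromosome 12, with gaps of 88.2 kb and 392 kb. With non-specific siRNA SLC38A4 was higher with DHT, whereas SLC38A1 and SLC38A2 differed by -0.12 (95% interval -0.26 to 0.011) and -0.17 (-0.32 to -0.027, adjusted p = 0.199, edgeR). SLC7A7 and SLC7A8, the next closest pair, lie 295 kb apart on the minus strand of chromosome 14.

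Genes around the transporters are given by lists of the same pathways, to be read against the shares of all genes called with PXN siRNA, 25.0% higher and 26.7% lower under DHT and 23.9% higher and 26.3% lower under vehicle. The aminoacyl-tRNA synthetases, which load amino acids onto tRNA, fell with PXN siRNA nearly throughout: 18 of 20 were lower under DHT and 17 of 20 under vehicle, and none was higher (edgeR). The list's median log2 fold change was -0.34 under DHT and -0.41 under vehicle. FARSB, a subunit of the phenylalanine enzyme, averaged 71.7 ± 6.54 CPM with PXN siRNA against 139 ± 11.2 CPM with non-specific siRNA under DHT (SD, n = 3 each). IARS, the isoleucine enzyme, averaged 224 ± 13.8 CPM against 392 ± 21.2 CPM in the same comparison.

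In glutamine and asparagine metabolism 12 of 20 tested genes fell and 1 rose with PXN siRNA under DHT, and 13 fell and 1 rose under vehicle, with medians of -0.47 and -0.37. PPAT, which uses glutamine for the first step of purine synthesis, averaged 39.0 ± 2.65 CPM against 96.7 ± 5.63 CPM under DHT and 38.5 ± 6.20 CPM against 92.4 ± 7.49 CPM under vehicle. ASNS, which makes asparagine from glutamine, averaged 106 ± 10.2 CPM against 172 ± 12.6 CPM under vehicle.

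The ATF4 list, of genes raised when amino acids are short, went both ways: 9 of 27 rose and 14 fell under DHT, and 7 rose and 14 fell under vehicle, with medians of -0.15 and -0.23. DDIT3, a stress transcription factor, rose (63.3 ± 10.0 CPM against 22.6 ± 1.23 CPM under DHT and 64.7 ± 8.42 CPM against 24.5 ± 3.24 CPM under vehicle), as did PPP1R15A under DHT (1.38 ± 0.14 on the log2 scale) and VLDLR under vehicle (1.17 ± 0.12). PHGDH and SHMT2, enzymes of serine and glycine synthesis, fell, PHGDH by 0.98 ± 0.10 under vehicle and SHMT2 by 0.61 ± 0.07 under DHT on the log2 scale.

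Cystine and glutathione genes, which bear on the use of the cystine that SLC7A11 imports, were called in both directions too, with 8 of 19 tested higher and 5 lower under DHT and 7 higher and 5 lower under vehicle (medians 0.06 and -0.05). The share lower was 26.3% in each treatment, close to that of all genes, and the share higher was 42.1% and 36.8%. HMOX1, heme oxygenase, was at 46.8 ± 8.29 CPM with PXN siRNA against 8.22 ± 0.971 CPM with non-specific siRNA under DHT, and at 43.7 ± 12.5 CPM against 8.55 ± 0.938 CPM under vehicle. GCLC, which carries out the first step of glutathione synthesis, rose by 0.65 ± 0.09 under DHT and 0.58 ± 0.09 under vehicle on the log2 scale, while ME1, a source of NADPH, fell by 0.70 ± 0.10 and 0.76 ± 0.10.

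Of 32 genes that carry amino acid signals to mTORC1, 11 rose and 11 fell with PXN siRNA under DHT and 9 rose and 11 fell under vehicle (medians 0.09 and 0.05). These are 34.4% in each direction under DHT, and 28.1% higher and 34.4% lower under vehicle. FLCN, folliculin, was at 98.5 ± 6.16 CPM against 47.8 ± 4.81 CPM under DHT and at 98.5 ± 0.826 CPM against 49.5 ± 9.12 CPM under vehicle. RRAGB, a Rag GTPase, rose by 0.90 ± 0.10 and 0.94 ± 0.10 on the log2 scale. With DHT and non-specific siRNA, MTOR rose (0.47 ± 0.10, adjusted p = 0.0102) and SESN1, which encodes a sestrin, fell (-0.59 ± 0.10, adjusted p = 0.00369); no gene of this list was called with DHT and PXN siRNA.

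Of the branched-chain amino acid breakdown genes, 3 of 19 tested rose and 10 fell under DHT, and 3 rose and 8 fell under vehicle (medians -0.17 and -0.19). ACAD8, of valine breakdown, rose (0.81 ± 0.08 and 1.07 ± 0.08), and MCCC2, of leucine breakdown, fell (-1.18 ± 0.13 and -0.86 ± 0.13) on the log2 scale. MCCC2 was also raised by DHT with non-specific siRNA, at 296 ± 49.5 CPM against 176 ± 9.21 CPM (adjusted p = 0.00371, edgeR). HIBADH, of valine breakdown, was the other gene of this list called there and fell, at 80.1 ± 6.78 CPM with DHT against 103 ± 12.7 CPM with vehicle (adjusted p = 0.0486). Of 13 tested mitochondrial amino acid carriers, 2 rose and 9 fell under DHT and 3 rose and 7 fell under vehicle (medians -0.50 and -0.20), among them SLC25A44, the carrier of branched-chain amino acids (-0.77 ± 0.06 and -0.66 ± 0.06). Of 11 tested transporters of other families, 2 rose and 4 fell under DHT and 3 rose and 3 fell under vehicle (medians -0.02 and -0.08), a share called of 54.5% in each treatment, near the 51.8% and 50.2% of all genes. SLC16A10, which encodes the aromatic amino acid transporter TAT1, was at 5.62 ± 1.10 CPM with PXN siRNA against 12.6 ± 1.00 CPM with non-specific siRNA under DHT and at 4.28 ± 0.773 CPM against 11.4 ± 0.427 CPM under vehicle. With DHT and non-specific siRNA, SLC6A20, a proline transporter gene, fell to 0.847 ± 0.548 CPM, against 3.08 ± 0.32 CPM with vehicle (adjusted p = 0.00209, edgeR).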

How the data were processed

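Poly(A) RNA from 12 LNCaP libraries was read as whole-number counts per gene symbol, which the authors deposited in 1 table of 36137 genes; none of its columns lacked a sample. The submitters' processing notes name Trimmomatic 0.32, STAR 2.4.2a, Subread 1.5.0p3 with featureCounts, and the GRCh38 build. Strandedness of the counting, the gene annotation and the handling of multiply mapped reads are not stated in any source used here.

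Samples were grouped by their own labels. In R 4.3.3 with edgeR 4.0.16, genes were kept by filterByExpr (18468 kept, 17669 left out), scaled by TMM and fitted in 1 quasi-likelihood model of 4 group means over all 12 libraries (8 residual degrees of freedom). P-values were adjusted over all genes kept. The SE of a log2 fold change was derived from the test, as the fold change over the square root of F, and 95% intervals use the 14.4 degrees of freedom of that test for the members (residual plus prior). Replicates of a group all differed by more than sampling noise. This does not show that they were separate cultures, and each library was taken as 1 sample in the fit. The scripts were tested on simulated data.

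The members and lists were chosen with earlier results of these data known. Values per library are given for up to 6 called members with the smallest p in each direction and pairwise comparison among those whose higher group averaged at least 5 CPM, for the 3 smallest p of the interaction, and for SLC3A2, SLC7A5, SLC7A11, SLC1A5 and SLC43A1; the other members with values per library were added after their values were seen. Up to 3 called genes per list and comparison could be named.

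Replicate numbers come from the labels, which do not say what they mark. They were taken to pair groups where deviations from the group means correlated over 0.1 in all 3 pairs. The limit was a choice, and libraries with different numbers were not compared, so pairing was not shown. For the PXN siRNA the correlations were 0.0769 to 0.284 under DHT, not all over this limit, and 0.121 to 0.210 under vehicle. For DHT they were 0.100 to 0.307 in PXN siRNA libraries and 0.145 to 0.383 in those with non-specific siRNA.

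Alternatives were DESeq2 1.42.0 and limma 3.58.1 (voom), other scalings, filters and thresholds, fits of only the groups compared, a fit without mitochondrially encoded genes, the replicate block, and leaving out each library. Lengths and positions came from GENCODE 29, which may differ from the authors' annotation. A comparison of protein sequences was not run. Some luminal marker genes are not reported here.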

Additional observations from a re-analysis of the deposited data

How the results depend on the processing

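Counts of called transporters varied as follows. Against a fold change of 1.5, the test called 5 members under DHT (2 higher, 3 lower) and 7 under vehicle (3 higher, 4 lower) with PXN siRNA, beside 12.1% and 10.6% of all genes, and 1 for DHT with non-specific siRNA (lower 0), beside 0.428%. For DHT with non-specific siRNA the count was 4 with no filter (2 higher, 2 lower), beside 1089 of 36137 genes. It was 1 with a filter at a mean of 1 CPM (higher 0, since SLC38A4 was then not tested), beside 871 of 14030 genes. With the replicate block it was 8 (5 higher, 3 lower), beside 2236 of 18468 genes. The number lower was 2 with upper-quartile scaling, DESeq2 or limma-voom, beside 450, 465 and 395 genes lower. For DHT with PXN siRNA 1 member was called, higher, with no filter or DESeq2, beside 188 of 36137 and 145 of 18468 genes. With the block 2 members were called, beside 346 of 18468 genes. Each library was also left out in turn, with 18830 to 18943 genes tested. PXN siRNA under DHT then had 15 to 19 calls (6 to 7 higher, 9 to 13 lower), beside 8276 to 9890 genes. Under vehicle there were 17 to 19 (7 higher, 10 to 12 lower), beside 7796 to 9431 genes. DHT with non-specific siRNA had 2 to 4 (1 to 2 in each direction), beside 416 to 1361 genes. DHT with PXN siRNA had 0 to 1, beside 10 to 80 genes, and the interaction 0, beside 0 to 45 genes. The block added SLC38A10 and SLC7A2 (-0.14 and -0.23) for PXN siRNA under DHT and changed no call beyond those given above. In that comparison 1 of the 3 correlations, 0.0769, missed the limit of 0.1 for pairing, which does not show that the numbers are unrelated there. Of the 18 calls in each PXN siRNA comparison, 14 under DHT and 16 under vehicle were kept under all of the 21 settings, stricter thresholds aside, in which the gene was tested; those lost were SLC38A1 and SLC1A4 in both, and SLC7A5 and SLC38A4 under DHT. Small DHT differences that were never called changed sign when 1 library was left out: SLC3A2 (-0.027 to 0.10 with PXN siRNA and -0.027 to 0.086 with non-specific siRNA), SLC1A5 (-0.12 to 0.11 with PXN siRNA) and SLC7A11 (-0.016 to 0.18 with non-specific siRNA). Except where stated, the cause was not tested. SLC7A7, SLC7A13, SLC38A4 and SLC7A9 rest on few counts, 183 to 444 over all libraries.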
